A study of Drosophila melanogaster with 6 samples.

Results

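The insect cuticle is built largely from chitin and from structural proteins that bind it, and the fly encodes these proteins in several gene families. Expression of these genes was examined on 6 arrays of cells sorted for a Gad1 reporter, 1 of them holding the non-fluorescent fraction. All probe sets were taken that the platform annotation gives a single gene whose symbol begins with Cpr, Lcp, Ccp84, Acp65, Pcp, Edg or Twdl. Where a gene had several such probe sets, the brightest by mean over the 6 arrays represented it, so for 6 genes the probe set was chosen by its measured level. This gave 92 genes of the 10844 named on the array, made up of 58 Cpr, 20 Twdl, 5 Lcp, 4 Ccp84, 3 Edg, 1 Pcp and 1 Acp65 gene. The current RefSeq annotation holds 126 genes with these prefixes, and the 92 are those with a probe set of their own.

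Epidermal cells secrete cuticle at their apical face, and so do tracheal and foregut and hindgut cells, which share that origin. Most of the proteins studied here carry the Rebers and Riddiford domain, which binds chitin (the Cpr, Lcp, Ccp84, Acp65 and Pcp proteins and part of the Edg group), whereas the Tweedle proteins (Twdl) form a separate family that helps set the shape of the body. Different family members are deployed at different moults and in soft or stiff cuticle, which is why older names refer to larval (Lcp), pupal (Pcp), adult (Acp) or ecdysone-dependent (Edg) cuticle. Neurons and glia of the brain do not secrete cuticle.

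Total RNA came from Drosophila melanogaster cells sorted by fluorescence. All samples carried the same reporter, in which 2.1 kb of promoter from Gad1 drive the red fluorescent protein dsRed1. Gad1 encodes the enzyme that makes GABA, an inhibitory transmitter, from glutamate. The fluorescent fraction of an embryonic cell culture was measured on 4 arrays, a to d (EC_pos). From larval brain with ventral nerve cord, 1 array measured the fluorescent fraction (LB_pos) and 1 array the non-fluorescent fraction (LB_neg). No non-fluorescent fraction of the culture was analysed here, so the difference between embryonic and larval cells cannot be told apart from that between cultured and freshly dissected ones. Strain, larval age, culture time and pooling are not given in the labels. Whether each of the 4 EC_pos arrays stands for its own culture is not stated either, so p-values refer to the spread among these arrays alone, which may be technical. Each larval group has 1 array, whose spread was taken to equal that of EC_pos. In sorted cells measured in bulk, fewer cells of a type and less RNA per cell cannot be told apart. A probe set may also bind transcripts of close relatives, which these gene families have in number, and that was not tested.

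EC_pos array a stood apart from the rest of its group. Its log2 intensities correlated with those of arrays b, c and d at Pearson's r of 0.588 to 0.707 across tested probe sets, against 0.908 to 0.944 among b, c and d. The ratio of the 3' to the 5' control probe set of Gapdh was 866 on array a and 8.90 to 42.4 on the other 5 arrays, a measure on which high values accompany degraded or short RNA. By Actin the ratio was 148 on array a, 72.5 on EC_pos b and 58.3 on LB_pos. By EIF-4A it was 640 on array a, 46.3 on EC_pos b and 120 on LB_neg. Array a was highest by each control, but no array had a ratio under 8.90, so weak 5' signal was not limited to array a. Results are therefore given with array a and without it. Gad1 itself, the gene behind the sort, was dim on every array, at 22.2, 27.6, 37.1 and 39.0 on EC_pos a to d, 22.0 on LB_neg and 54.8 on LB_pos. These values lay below the filter on low intensities and Gad1 was not tested.

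Some cuticle genes gave bright values in every group, and levels were very unequal. Intensities are the authors' linear values, and 197.35, the median over all probe sets and arrays, served as the mark of a bright value. Of the 92 genes, 31, 34, 40 and 34 exceeded it on EC_pos a to d, 21 on LB_neg and 37 on LB_pos. The array medians over all probe sets ran from 181.5 on LB_neg to 229.4 on LB_pos. The mark thus lay near the middle of all probe sets on every array, and exceeding it does not set cuticle genes apart. A total of 60 passed the filter by exceeding the mark on at least 1 array and were tested, beside 9635 of all 13966 probe sets. The 60 comprised 38 Cpr, 12 Twdl, 4 Ccp84, 3 Edg, 2 Lcp and 1 Pcp gene. Of these 60, 33 exceeded it in both EC_pos and larval cells, 20 only on EC_pos arrays and 7 only on larval arrays. The same split was not computed over all probe sets. The other 32 genes stayed between 5.8 and 195.3 on every array. Acp65Aa, an adult cuticle gene and the single member of its family, was among them, at 27.5, 23.7, 53.6 and 27.8 on EC_pos a to d, 26.8 on LB_neg and 79.6 on LB_pos.

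With all 4 EC_pos arrays in the fit, no cuticle gene passed the test. Calls were made with limma at an adjusted p under 0.05, over all 9635 tested probe sets. Against LB_pos, 0 of 60 genes were called higher or lower, where 0.0208% of probe sets were called higher and 0.0104% lower (0.0311% in all). Against LB_neg, 0 of 60 were called, where 0.467% of probe sets were called higher and 0.0727% lower (0.54% in all). At an unadjusted p under 0.05, 5 genes differed from LB_pos, 4 of them higher, beside 13.5% of all probe sets, and 10 differed from LB_neg, 9 of them higher, beside 17.4%. The lowest adjusted p of any cuticle gene belonged to Cpr49Ac in both comparisons, at 0.108 and 0.0551. Leaving out array b, c or d in place of a also gave 0 calls each time.

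Without array a, a set of cuticle genes was higher in cultured embryonic cells than in either larval fraction. Against LB_pos, 13 of the 60 tested genes were called higher and 1 lower, beside 8.61% of probe sets called higher and 5.49% lower (14.1% in all). Against LB_neg, 16 were called higher and 0 lower, beside 12.6% and 10.6% (23.2% in all). All 13 are among the 16, and the comparisons share their EC_pos arrays. Since 9 of the 16 had passed the filter only through their EC_pos values, the fit was also made with no filter over all 92 genes. It then called 12 genes (13.0%) higher than LB_pos and 16 (17.4%) higher than LB_neg, beside 6.07% and 8.41% of all probe sets, and 2 and 0 genes lower, beside 5.42% and 7.21% (11.5% and 15.6% of probe sets in all). The gene no longer called higher was Pcp, with an adjusted p of 0.0543 by limma, and the additional lower gene was Cpr49Ae, at an adjusted p of 0.048.

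The typical cuticle gene differed much less than these. The median log2 difference of the 60 tested genes between EC_pos and LB_pos was 0.03 with all arrays and -0.07 without a, where the median over tested probe sets was -0.24 and -0.26. Between EC_pos and LB_neg it was 0.46 and 0.48, where the median over tested probe sets was -0.11 and -0.14. Over all 92 genes with no filter, the medians without a were -0.08 against LB_pos and 0.22 against LB_neg, beside -0.22 and -0.03 over all probe sets. All 4 EC_pos arrays lay above both larval arrays for 13 of the 92 genes (14.1%), close to the 11.4% of all probe sets. They lay below both for 6 genes (6.52%), beside 17.4%. Arrays b, c and d lay above both larval arrays for 25 genes (27.2%), beside 17.3%, and below both for 8 (8.70%), beside 26.4%.

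**Figure D1:**
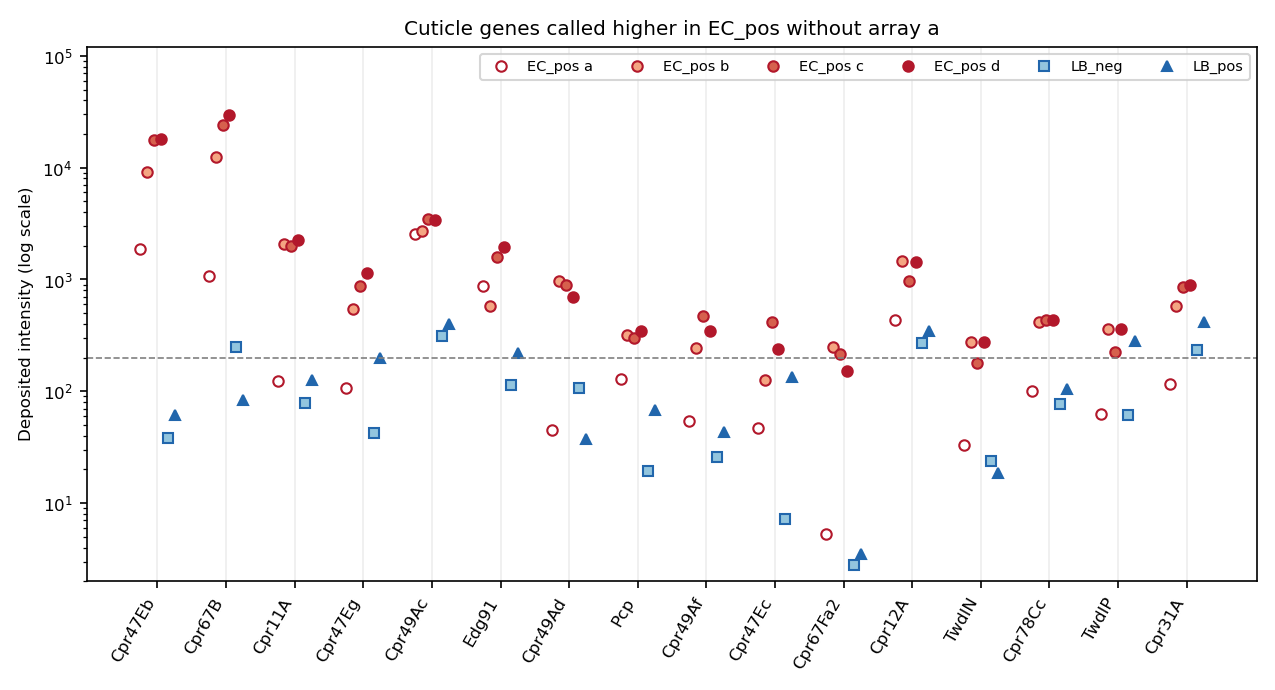
Deposited intensity (log scale) of the 16 cuticle genes called higher without EC_pos array a, with 1 marker for each EC_pos array a to d, LB_neg and LB_pos, and the pooled median of 197.35 as a dashed line. Arrays b to d of Cpr67B and Cpr47Eb reach 9088 to 29436 while their larval values stay at or below 250.2, and array a is the lowest EC_pos array in 15 of the 16 genes.

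Cpr67B and Cpr47Eb, which encode chitin-binding cuticle proteins, differed most. Cpr67B (probe set 152457_at) was at 1069, 12396, 24147 and 29436 on EC_pos a to d, 250.2 on LB_neg and 82.8 on LB_pos. Every EC_pos array exceeded both larval arrays, and array a lay far below b, c and d. Its log2 difference without a was 7.25 ± 0.47 (SE, 3 EC_pos arrays) from LB_pos, at an adjusted p of 0.000119 by limma, and 6.09 ± 0.47 from LB_neg, at 0.000133. With all 4 arrays the differences were 6.20 ± 1.69 and 5.04 ± 1.69, with adjusted p of 0.218 and 0.198. The estimate remained large and its error grew.

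Cpr47Eb (146996_at) was at 1857, 9088, 17755 and 18229 on EC_pos a to d, 38.2 on LB_neg and 61.0 on LB_pos. It again separated the culture from both larval fractions on every array. The log2 difference without a was 6.97 ± 0.44 from LB_pos (limma adjusted p 0.000113) and 7.29 ± 0.44 from LB_neg (5.81e-05). With array a it was 6.24 ± 1.23 and 6.56 ± 1.23, with adjusted p of 0.123 and 0.0695.

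Cpr49Ac, another gene of a chitin-binding cuticle protein, was the called gene on which array a differed least from the others. It was at 2528, 2720.3, 3467 and 3408 on EC_pos a to d, 312 on LB_neg and 396 on LB_pos, so that all EC_pos arrays fell in a narrow band above both larval arrays. The log2 difference from LB_pos was 2.85 ± 0.33 without a (limma adjusted p 0.00135) and 2.77 ± 0.49 with it (0.108). From LB_neg it was 3.15 ± 0.33 without a (0.000587) and 3.06 ± 0.49 with it (0.0551). Its size hardly depended on array a, while its adjusted p did.

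In Cpr11A and Cpr49Ad, both of the same chitin-binding family, array a fell among the larval values. Cpr11A was at 122, 2093, 1997 and 2235 on EC_pos a to d, 78.8 on LB_neg and 126 on LB_pos. Its log2 difference without a was 3.59 ± 0.34 from LB_pos (limma adjusted p 0.000548) and 4.03 from LB_neg (0.000222). With a, the adjusted p rose to 0.462 and 0.328. Arrays b, c and d thus form 1 level and array a another, so the call rests on leaving a out. Cpr49Ad was at 44.9, 974, 889.9 and 698 on EC_pos, 106 on LB_neg and 37.3 on LB_pos, and its log2 difference without a was 3.31 ± 0.40 from LB_pos (0.00164) and 2.50 from LB_neg (0.00369).

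The pupal cuticle genes Edg91 and Pcp were also called, whereas the other Edg genes, Edg78E and Edg84A, were not. Without a, Edg78E differed by -1.39 from LB_pos and -0.58 from LB_neg on the log2 scale, and Edg84A by -0.13 and 0.56. Edg91, a glycine-rich pupal cuticle gene under ecdysone control, was at 868, 576, 1598 and 1940.3 on EC_pos a to d, 115 on LB_neg and 219.9 on LB_pos. It was the exception among the 16 in that array b, not a, was the lowest. The log2 difference without a was 2.22 ± 0.62 from LB_pos (limma adjusted p 0.0488) and 2.92 ± 0.62 from LB_neg (0.0123). Pcp, the pupal cuticle protein gene nested in an intron of another gene, was at 129, 319.6, 301 and 349 on EC_pos a to d, 19.2 on LB_neg and 67.7 on LB_pos. All EC_pos arrays exceeded both larval ones, with array a lowest. Without a it differed by 1.63 ± 0.43 from LB_pos (0.0395) and 2.37 ± 0.43 from LB_neg (0.00607) on the log2 scale.

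Among the dimmer Cpr genes called, Cpr47Eg was at 106, 548, 875 and 1136 on EC_pos a to d, 42.2 on LB_neg and 198 on LB_pos. Array a lay between the larval values. The log2 difference of Cpr47Eg without a was 1.79 ± 0.47 from LB_pos (limma adjusted p 0.0398) and 3.19 ± 0.47 from LB_neg (0.00249). Cpr12A was at 429.6, 1454, 972 and 1435 on EC_pos, 272 on LB_neg and 349 on LB_pos. Here array a, although the lowest of its group, still exceeded both larval arrays. Without a, Cpr12A differed on the log2 scale by 1.71 ± 0.38 from LB_pos (limma adjusted p 0.0236) and by 2.02 ± 0.38 from LB_neg (0.00782). Cpr78Cc was at 101, 413, 433 and 435 on EC_pos, 76.2 on LB_neg and 105 on LB_pos. Arrays b, c and d were nearly equal, and array a lay at the larval level. The log2 difference of Cpr78Cc without a was 1.60 ± 0.40 from LB_pos (limma adjusted p 0.0347) and 1.89 ± 0.40 from LB_neg (0.0122).

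The called genes of lowest intensity included the Tweedle gene TwdlN, at 33.3, 276, 178 and 273 on EC_pos a to d, 23.6 on LB_neg and 18.4 on LB_pos. The log2 difference of TwdlN without a was 2.02 ± 0.47 from LB_pos (limma adjusted p 0.0273) and 1.92 ± 0.47 from LB_neg (0.0222). Its second probe set was at 21.3, 155, 135 and 144 on EC_pos, 18.6 on LB_neg and 40.0 on LB_pos, and it too set arrays b, c and d apart from the rest. Cpr67Fa2 was at 5.3, 249, 217 and 153 on EC_pos, 2.8 on LB_neg and 3.5 on LB_pos. Without a, Cpr67Fa2 differed on the log2 scale by 2.17 ± 0.49 from LB_pos (limma adjusted p 0.0236) and by 2.19 ± 0.49 from LB_neg (0.0149). Cpr49Af was at 53.7, 246, 469.9 and 345 on EC_pos, 26.0 on LB_neg and 43.4 on LB_pos. The log2 difference of Cpr49Af without a was 2.03 ± 0.48 from LB_pos (limma adjusted p 0.0286) and 2.32 ± 0.48 from LB_neg (0.0112). All 3 genes were dim on array a and on both larval arrays, where the offset of 53.6 added before the logarithm shrinks folds.

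Another 3 genes were called against LB_neg and not against LB_pos without array a. Cpr31A was at 116, 579, 857 and 884 on EC_pos a to d, 235 on LB_neg and 418 on LB_pos. The log2 difference of Cpr31A without a was 0.79 ± 0.40 from LB_pos (limma adjusted p 0.207) and 1.50 ± 0.40 from LB_neg (0.0294). TwdlP, a Tweedle gene, was at 62.7, 363, 226 and 361 on EC_pos, 61.7 on LB_neg and 279 on LB_pos. Without a, TwdlP differed on the log2 scale by 0.13 ± 0.44 from LB_pos (limma adjusted p 0.863) and by 1.66 ± 0.44 from LB_neg (0.0301). In both genes LB_pos lay above LB_neg and nearer to arrays b, c and d. Cpr47Ec was at 47.1, 127, 415 and 238 on EC_pos, 7.2 on LB_neg and 133 on LB_pos, and its LB_pos value fell within the range of arrays b, c and d. The log2 difference of Cpr47Ec without a was 0.64 ± 0.58 from LB_pos (limma adjusted p 0.474) and 2.26 ± 0.58 from LB_neg (0.0265). Whether the 2 contrasts differed for these genes was not tested.

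**Figure D2:**
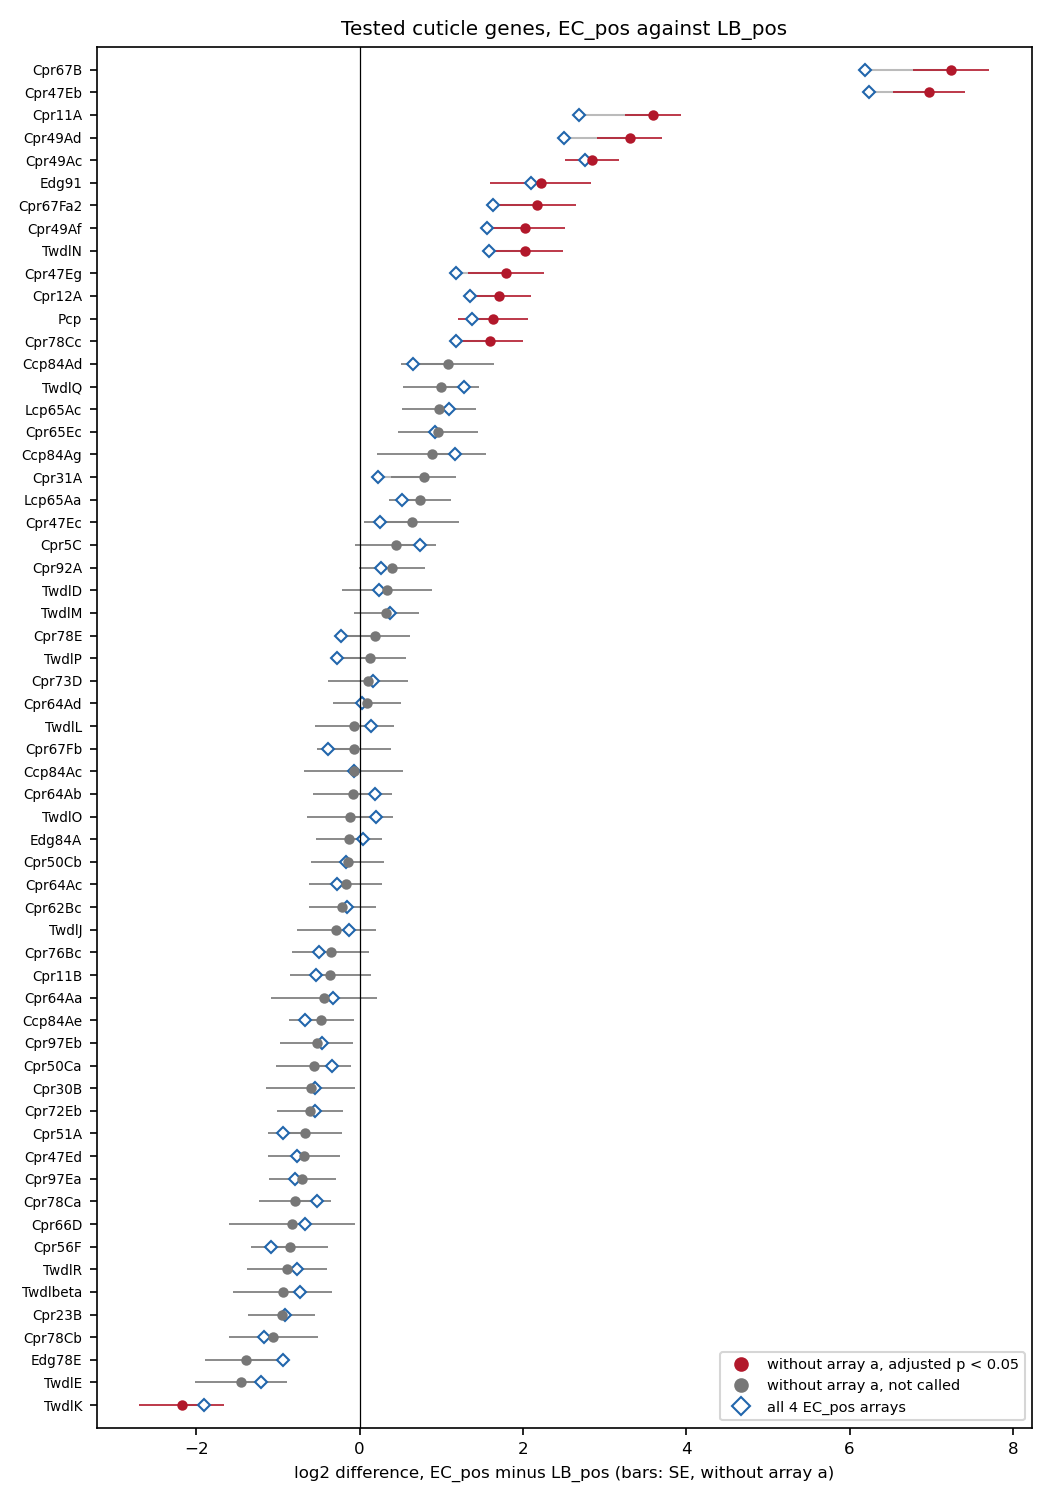
Log2 difference between EC_pos and LB_pos (horizontal axis) for the 60 tested cuticle genes (vertical axis, ordered by it), as filled points without array a, with bars of 1 SE, and as open diamonds with all 4 EC_pos arrays. Red points are called without a, and their diamonds lie nearer to 0 in each of these genes, by least for Cpr49Ac and Edg91, while Cpr67B and Cpr47Eb stand above 6 in both settings.

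Array a was not low for all cuticle genes. It was the lowest EC_pos array for 37 of the 92 genes and the highest for 25, beside 33.4% and 36.6% of all probe sets. Among the tested genes it lay at least 1 log2 unit below the mean of b, c and d for 18 of 60, beside 22.0% of tested probe sets, and at least 1 log2 unit above it for 8, beside 19.1%. Cpr5C was highest on array a, at 396, 108, 114 and 219.7 on EC_pos a to d, 156 on LB_neg and 89.9 on LB_pos. Its arrays b, c and d overlapped the larval values. Edg78E, a pupal cuticle gene, was at 289, 30.5, 71.7 and 36.1 on EC_pos, 92.8 on LB_neg and 204 on LB_pos. Here b, c and d lay below both larval arrays and a above them, and neither Cpr5C nor Edg78E passed the test.

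A single tested cuticle gene was called lower in the culture, and against LB_pos alone. TwdlK, a Tweedle gene, was at 208, 27.8, 106 and 87.7 on EC_pos a to d, 280.3 on LB_neg and 501 on LB_pos. All EC_pos arrays lay below both larval arrays. Its log2 difference from LB_pos was -2.18 ± 0.52 without a (limma adjusted p 0.0294) and -1.91 ± 0.69 with it (0.333), and from LB_neg it was -1.45 ± 0.52 without a (0.0806). The other genes with all EC_pos arrays below both larval ones were Cpr23B, Cpr49Ah, Cpr65Az, Cpr72Ea and Cpr78Cb. Cpr23B was at 204, 149, 187 and 208 on EC_pos, 308 on LB_neg and 398 on LB_pos, and without a its log2 difference from LB_pos was -0.95 ± 0.41 (0.151). Cpr78Cb was at 36.9, 28.1, 89.0 and 112 on EC_pos, 133 on LB_neg and 205 on LB_pos, and its difference was -1.06 ± 0.54 (0.214).

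Several other genes with negative differences from LB_pos did not pass the test, and in many of them the EC_pos arrays disagreed among themselves. TwdlE was at 189, 39.2, 144 and 46.8 on EC_pos a to d, 118 on LB_neg and 282 on LB_pos, and without a its log2 difference from LB_pos was -1.45 ± 0.56 (limma adjusted p 0.117). Cpr56F was at 31.1, 143, 96.7 and 79.7 on EC_pos, 44.7 on LB_neg and 233 on LB_pos. Every EC_pos value of Cpr56F lay below LB_pos, and arrays b, c and d lay above LB_neg. Cpr51A was at 32.3, 140.2, 151 and 97.8 on EC_pos, 90.0 on LB_neg and 235 on LB_pos. TwdlR was at 188, 74.7, 165 and 122 on EC_pos, 95.1 on LB_neg and 261 on LB_pos. Cpr97Ea was at 403, 418, 739.6 and 493 on EC_pos, 645 on LB_neg and 903 on LB_pos. In these 3 genes, as in Cpr56F, LB_pos was the highest of the 6 arrays. Cpr66D was at 190.0, 90.4, 295 and 21.5 on EC_pos, 73.5 on LB_neg and 222 on LB_pos, and its EC_pos values reached beyond the larval ones at both ends. Cpr78Ca was at 408, 148, 217 and 136 on EC_pos, 165 on LB_neg and 325 on LB_pos, and array a alone exceeded LB_pos.

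Against LB_neg, no cuticle gene was called lower. The nearest was Cpr73D, at 122, 78.4, 146 and 65.4 on EC_pos a to d, 384 on LB_neg and 82.5 on LB_pos. Its log2 difference from LB_neg was -1.58 ± 0.49 without a (limma adjusted p 0.0509), and scaling the arrays by quantiles or to a common median brought the adjusted p to 0.0457 and 0.0334. LB_neg alone was high, and by the second probe set of Cpr73D it was not. That probe set was at 99.1, 70.9, 49.1 and 17.0 on EC_pos, 20.0 on LB_neg and 16.3 on LB_pos. Cpr64Ab was at 583, 315, 148 and 316 on EC_pos, 472 on LB_neg and 266 on LB_pos. Without a it differed from LB_neg by -0.80 ± 0.48 on the log2 scale. TwdlD, whose dominant mutations shorten the larva and pupa, was at 113, 201, 254 and 80.8 on EC_pos, 239 on LB_neg and 120.2 on LB_pos, a difference of -0.42 ± 0.55. Both had EC_pos values on either side of the LB_neg value and were not called. The same was true of Cpr30B, at 201, 146, 305 and 100.2 on EC_pos, 247 on LB_neg and 283 on LB_pos.

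Cuticle genes sit in runs along the chromosomes, and neighbours were compared by their order in the RefSeq annotation. Members at most 6 places apart in the order of protein-coding genes were joined, which placed 68 genes in 16 groups and left 24 alone. In the Cpr49A group of 6 genes, all 3 tested, Cpr49Ac, Cpr49Ad and Cpr49Af, were called higher than both larval fractions without array a, with log2 differences of 2.03 to 3.31 from LB_pos. Cpr49Ad and Cpr49Af had passed the filter only through EC_pos values, so being tested and being high in EC_pos are linked. The others of the group, too dim to be tested, did not follow. Cpr49Ab, Cpr49Ae and Cpr49Ah differed from LB_pos by -0.06, -1.12 and -0.73, and Cpr49Ae was called lower with no filter. In the Cpr47E group of 7, 4 were tested, and Cpr47Eb and Cpr47Eg were called against LB_pos, with Cpr47Ec added against LB_neg. The fourth, Cpr47Ed, was at 197, 201, 361 and 251 on EC_pos a to d, 186 on LB_neg and 456 on LB_pos. Differences from LB_pos within this group ran from -0.68 to 6.97, so adjacent genes differed widely in it.

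Other groups held few called genes or none. The 4 genes of the Cpr64A group were all tested and none was called, with log2 differences from LB_pos without a between -0.43 and 0.10. The group of Edg84A, Ccp84Ag, Ccp84Ae, Ccp84Ad and Ccp84Ac was tested whole, with 0 of 5 called and differences from -0.47 to 1.08. The larval and adult cuticle genes of the Lcp65A group, 6 in all, had 2 tested and 0 called. The similarly named Lcp65Ag1, Lcp65Ag2 and Lcp65Ag3 are not among them, because their probe sets are annotated to several genes. Their shared probe set 143935_s_at was at 601 on EC_pos a, 18081 to 20261 on b to d, 154 on LB_neg and 190.0 on LB_pos. The group with most members, 11 Tweedle genes, had 10 tested, of which TwdlN was called against both larval fractions, TwdlP against LB_neg and TwdlK lower than LB_pos. Its differences from LB_pos ran from -2.18 to 2.02. Cpr11A was called and its neighbour Cpr11B was not, and likewise Cpr67Fa2 and Cpr67Fb. Cpr11B was at 149, 449, 199 and 239 on EC_pos a to d, 112 on LB_neg and 374 on LB_pos. Cpr67Fb was at 45.8, 129.6, 232 and 212 on EC_pos, 195 on LB_neg and 198 on LB_pos. In both, the EC_pos values overlapped LB_pos.

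**Figure D3:**
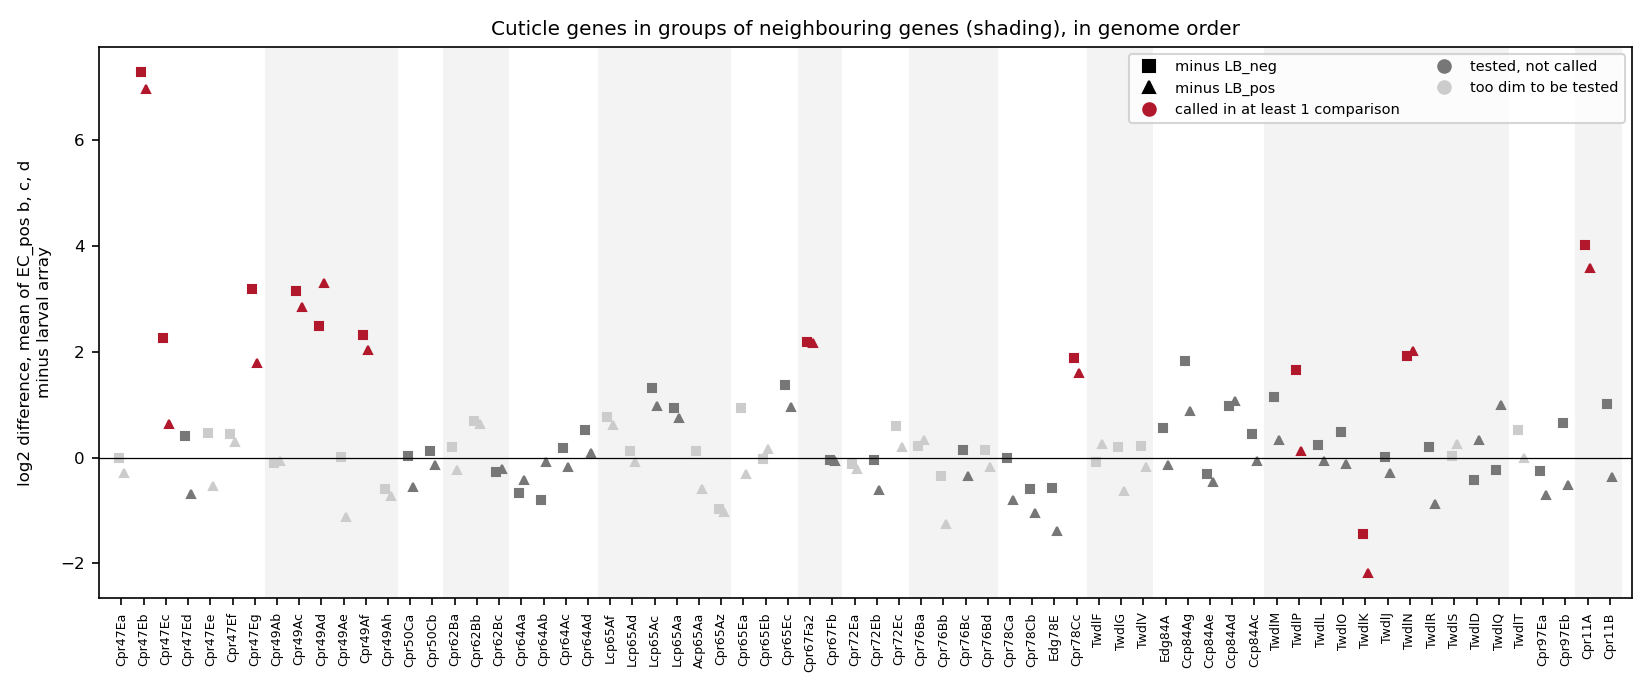
Log2 difference between the mean of EC_pos arrays b, c and d and a larval array (squares LB_neg, triangles LB_pos) for the 68 cuticle genes with neighbours among the 92, in genome order, with shading that alternates between the 16 groups. Red marks genes called without array a in at least 1 comparison, dark grey genes not called and light grey genes too dim to be tested. Triangles of the Cpr47E group run from 6.97 for Cpr47Eb to -0.68 for Cpr47Ed, and those of the Cpr64A group lie between -0.43 and 0.10.

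By family, without array a, 10 of 38 tested Cpr genes were called higher than LB_pos and 12 higher than LB_neg, beside 8.61% and 12.6% of all tested probe sets. Among those called, Cpr11A, Cpr47Eb, Cpr47Ec, Cpr49Ad, Cpr49Af, Cpr67Fa2 and Cpr78Cc had passed the filter only through EC_pos values, as had Pcp and TwdlN. The shares among tested genes therefore depend partly on the filter, which left out the dimmer of the 58 Cpr genes. No count by family was made without the filter. Of 12 tested Tweedle genes, 1 was called higher than LB_pos, 1 lower, and 2 higher than LB_neg, shares near those of all probe sets (8.61%, 5.49% and 12.6%). The Pcp gene and 1 of 3 Edg genes were called against both. None of the 2 tested Lcp and 4 tested Ccp84 genes was called in either comparison. Probe sets shared by several Lcp genes stand outside this count. Ccp84Ag was at 750.1, 399, 540.2 and 125 on EC_pos a to d, 49.2 on LB_neg and 144 on LB_pos. Ccp84Ad was at 181, 396, 1253 and 669 on EC_pos, 327 on LB_neg and 303 on LB_pos. In both, EC_pos arrays differed among themselves by more than the larval arrays did, and no test of a difference between families was made.

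A set of 12 genes exceeded the pooled median on all 6 arrays, the larval brain fractions included. The share of all probe sets that did so was not computed. Ccp84Ae was at 944, 1174, 2196 and 1939.6 on EC_pos a to d, 2130.1 on LB_neg and 2385 on LB_pos. Lcp65Aa, of the larval cuticle family, was at 743, 1914, 1238 and 1199 on EC_pos, 712 on LB_neg and 827 on LB_pos. Cpr64Ac was at 637, 613, 1317 and 809 on EC_pos, 765 on LB_neg and 985 on LB_pos. The values of Cpr62Bc were among the most even, at 299.6, 221, 302 and 232 on EC_pos, 313 on LB_neg and 298 on LB_pos. Cpr64Aa was at 669, 419, 1031 and 239 on EC_pos, 796 on LB_neg and 662 on LB_pos, with the highest and the lowest of the 6 values both in EC_pos. In 10 of these 12 genes the EC_pos and larval values overlapped. Apart from Cpr49Ac and Cpr12A, none was called without a, with log2 differences from LB_pos between -0.70 and 0.74 and from LB_neg between -0.68 and 1.15, and a lowest limma adjusted p of 0.0698.

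**Figure D4:**
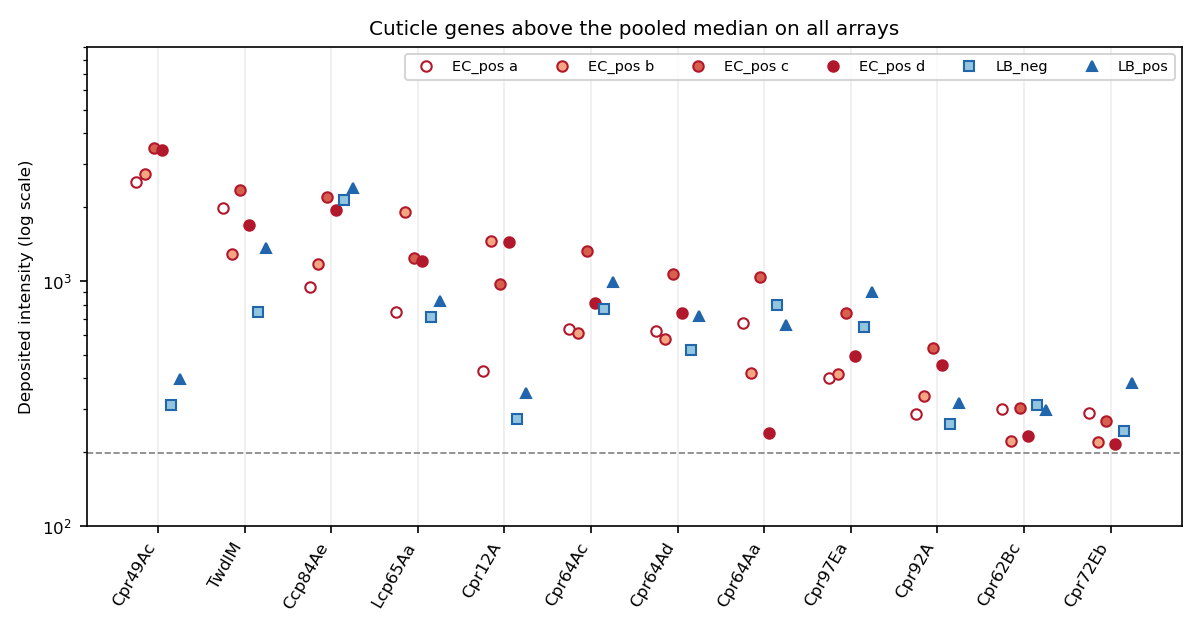
Deposited intensity (log scale) of the 12 cuticle genes above the pooled median of 197.35 (dashed line) on all 6 arrays, with 1 marker for each array. EC_pos and larval markers intermingle in 10 of the 12 columns, and in Cpr49Ac all EC_pos markers lie above both larval ones.

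Where a gene had a second probe set, the pattern could depend on which was read. TwdlM was at 1976, 1282, 2357 and 1690.0 on EC_pos a to d, 745 on LB_neg and 1361 on LB_pos by probe set 150662_i_at. Its other probe set, 150663_r_at, gave 80.6, 75.7, 137 and 46.5 on EC_pos, 177 on LB_neg and 194 on LB_pos. By the former LB_neg was the lowest array, and by the latter both larval arrays were above every EC_pos array. TwdlT was at 177, 53.1, 195 and 48.2 on EC_pos, 43.1 on LB_neg and 85.5 on LB_pos by its brighter probe set. Its other probe set gave 60.8, 153, 134 and 129 on EC_pos, 53.8 on LB_neg and 55.9 on LB_pos. By the former arrays a and c were high, and by the latter b, c and d. The dimmer probe sets of Cpr66D and TwdlJ were highest on LB_pos, at 140.3 and 140.0. None of these dimmer probe sets exceeded the pooled median or was tested, nor was either of TwdlT.

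Between the larval fractions, which had 1 array each and were compared without a test, 12 of 60 tested cuticle genes were at least 1 log2 unit higher on LB_pos, beside 11.8% of tested probe sets, and 3 were lower, beside 7.38%. Cpr47Ec, TwdlP and Cpr56F, with larval values already given, were higher by 1.62, 1.53 and 1.54. Twdlbeta was at 489, 157, 513 and 164 on EC_pos a to d, 160.0 on LB_neg and 515 on LB_pos, a larval difference of 1.41. The EC_pos arrays of Twdlbeta fell into a pair near each larval value, with a and c near LB_pos and b and d near LB_neg. Cpr78E was at 24.5, 198, 187 and 185 on EC_pos, 41.6 on LB_neg and 160.2 on LB_pos, a difference of 1.17. Cpr97Eb was at 163, 119, 148 and 110.3 on EC_pos, 59.8 on LB_neg and 204 on LB_pos, a difference of 1.18. The remaining genes higher on LB_pos, Cpr47Eg, Cpr11B, Cpr66D, Cpr47Ed, TwdlR and Cpr51A, had differences of 1.00 to 1.39.

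The genes lower on LB_pos were Cpr73D, by a log2 difference of -1.68, TwdlQ, by -1.23, and Cpr67B, by -1.16. TwdlQ was at 348, 98.8, 138 and 157 on EC_pos a to d, 161 on LB_neg and 37.9 on LB_pos. Most genes had smaller differences, under 0.5 log2 units in either direction for 26 of the 60. The count depends on how the arrays are scaled. With quantile normalization 6 genes were higher and 5 lower of 59 tested, beside 8.47% and 9.65% of probe sets, and with a common median 6 and 4, beside 7.2% and 14.2%. The median difference of tested cuticle genes was 0.43 as deposited, beside 0.11 over tested probe sets, 0.21 beside -0.02 with quantile normalization, and 0.16 beside -0.18 with a common median.

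**Figure D5:**
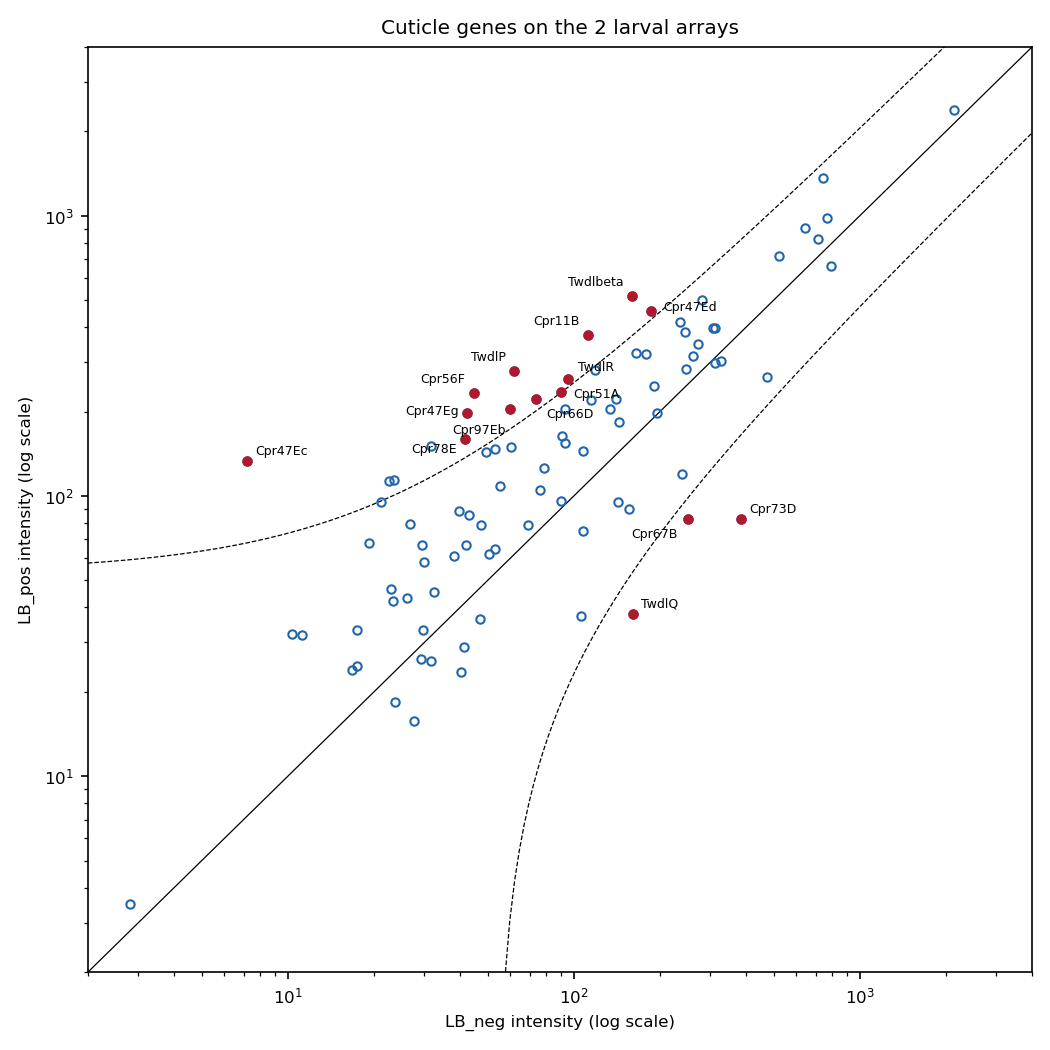
LB_pos against LB_neg intensity of the 92 cuticle genes, both on log scales, with the line of equality and dashed lines at 1 log2 unit of difference on the scale with the offset. The 15 labelled points are tested genes beyond the dashed lines, 12 above and 3 below, and open points beyond them belong to genes that did not pass the filter.

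Several probe sets are annotated to more than 1 gene, at least 1 of them with these prefixes, and so name none. The brightest, 143935_s_at, is annotated to 3 Lcp genes, Lcp65Ag1, Lcp65Ag2 and Lcp65Ag3. It was at 601, 18081, 20261 and 19687 on EC_pos a to d, 154 on LB_neg and 190.0 on LB_pos. Probe set 152220_at, which a Cpr gene shares with an odorant-binding protein gene, was at 94.0, 1489, 1287 and 1953 on EC_pos, 396 on LB_neg and 227 on LB_pos. Both showed arrays b, c and d far above array a and both larval arrays. A total of 7 such probe sets stood outside the 92 genes by the selection rule.

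Other genes of cuticle formation were described from lists. The chitin list holds synthases, deacetylases, chitinases and chitin-binding assembly proteins. Of its 20 tested genes, 10 were called higher than LB_pos without array a and 12 higher than LB_neg, none lower, beside 8.61% and 12.6% of probe sets called higher. They had a median log2 difference of 1.45 from LB_pos, beside the -0.26 over tested probe sets. obst-E, a chitin-binding protein that organises the larval cuticle, was at 433, 4848, 5543 and 6082 on EC_pos a to d, 16.8 on LB_neg and 379.9 on LB_pos, with a log2 difference of 3.67 ± 0.33 from LB_pos (limma adjusted p 0.000402). serp, a chitin deacetylase, Gasp and obst-A, both chitin-binding proteins, differed by 3.55, 3.07 and 2.89, at 0.00996, 0.00158 and 0.00174. With array a in the fit none of the 20 was called in either comparison.

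Of 9 tested genes of cuticle tanning, 4 were called higher than LB_pos without a and 6 higher than LB_neg, beside the same 8.61% and 12.6%. ple, the tyrosine hydroxylase that starts both dopamine synthesis and tanning, was at 346, 2491, 4074 and 4885 on EC_pos a to d, 46.0 on LB_neg and 145 on LB_pos, with a log2 difference of 4.23 ± 0.43 from LB_pos (limma adjusted p 0.000724). Pu, which makes the cofactor of that enzyme, and y, needed for black pigment, differed by 1.91 and 1.70 (0.0132 and 0.0184). Array a was the lowest EC_pos array for ple and yellow-f2, as for 15 of the 16 called cuticle genes. For Pu and y it was the highest, at 2226 and 1833. Of 10 tested genes listed as cuticle and apical matrix genes outside the prefixes, 2 were called higher than LB_pos, Vajk3 by 3.36 (0.00558) and pio by 2.74 (0.00325). Against LB_neg 3 were called higher, these and f, by 1.49 (limma adjusted p 0.0483), although the product of f is not itself a matrix protein. Of 14 tested regulators of epidermis and moulting, 0 were called higher than LB_pos and 2 lower, br by -2.05 (0.0159) and vri by -1.55 (0.0209), beside 8.61% and 5.49% of probe sets. Array a of vri was at 23249.6, above its LB_pos value of 6939.9, against the direction of that call. Against LB_neg, 1 of the 14 was called higher, Hr38 by 1.70 (0.0381), and 1 lower, br by -3.29 (0.00123), beside 12.6% and 10.6%. With all 4 arrays, none of the genes of these 3 lists was called.

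Markers of some other cell types were also higher in the culture, and their part in the cuticle results was not tested. Counts called are without array a, to be read beside 8.61% of probe sets called higher than LB_pos and 5.49% lower. Tracheal markers had a summed intensity of 7575 on EC_pos a and of 12537 to 21186 on the other EC_pos arrays, while LB_neg gave 1385 and LB_pos 2197. Without a, 5 of 7 tested were called higher than LB_pos. Of these, Gasp, serp, verm and pio also stand in the lists above, and uif alone does not. The sums are not independent of those lists either, with pio at 3253 on EC_pos a and verm at 9035 on EC_pos d. Of the other tracheal markers, bnl (limma adjusted p 0.244) and kni (0.127) were not called, and btl and dysf were too dim to be tested. Muscle markers had sums of 2916 on a and of 9665 to 15235 on the other EC_pos arrays, while LB_neg gave 704 and LB_pos 577, with 7 of 8 called higher, among them Mlc2, a myosin light chain, by 6.41 on the log2 scale (limma adjusted p 6.04e-05). Of 12 tested epithelial junction genes 1 was called higher than LB_pos, crb, by 2.36 (0.00496), a share near that of all probe sets. Their median log2 difference from LB_pos was nevertheless 1.11 without a and 1.12 with all arrays, beside -0.26 and -0.24 over tested probe sets. From LB_neg the median was 0.48 without a, beside -0.14. Their sums were 13467 on array a, the highest of the group, and at least 8116 on the other EC_pos arrays, 5599 on LB_neg and 5093 on LB_pos. Of 10 hemocyte markers 3 were called higher and 1 lower, with sums of 8231 on array a and 4052 to 9115 over all EC_pos arrays, 3418 on LB_neg and 2486 on LB_pos, and of 3 fat body markers 1 was called higher, apolpp, by 3.76 (0.000336), with sums of 3842 on array a and up to 4539 on the other EC_pos arrays, 678 on LB_neg and 798 on LB_pos. With 3266 to 3921 over the EC_pos arrays, apolpp alone made up most of the fat body sums there. The other tested fat body markers, Lsp2 and Fbp1, were not called. Without a they differed from LB_pos by -0.05 and -0.37, and from LB_neg by -0.27 and 0.50. The fat body sums therefore do not show higher fat body markers in the culture as a set. In every list 0 markers were at 0 on any array. With all 4 EC_pos arrays the calls in these and the following lists were apolpp, higher than LB_neg by 3.94 (0.0374), and the glial factor gcm, lower than LB_neg at -4.96 (0.0374).

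Markers of the nervous system were present in every group, and lower in the culture where called. Neuron markers summed to between 4177 and 9993 on EC_pos arrays, 11574 on LB_neg and 14349.8 on LB_pos. Of 9 tested, 2 were called lower than LB_pos without a, nSyb, a synaptic vesicle protein, by -1.68 on the log2 scale (limma adjusted p 0.023) and ChAT, the acetylcholine synthesising enzyme, by -1.48 (0.0499). From LB_neg the largest difference of a tested neuron marker without a was that of elav, at -3.19. Markers of neuroblasts and dividing cells summed to between 3458 and 4540.0 on EC_pos arrays, 17878 on LB_neg and 9399 on LB_pos. Of these, 3 of 9 were called lower than LB_pos and 7 lower than LB_neg, beside 5.49% and 10.6% of probe sets. Glial markers summed to between 3536 and 4819.8 on EC_pos arrays, 6791 on LB_neg and 3540.1 on LB_pos, with gcm called lower by -2.34 (0.00742) from LB_pos. With 3914 on LB_neg, gcm alone made up most of that sum, and it was at 499.9 on LB_pos. The other tested glial markers went in both directions, differing from LB_neg without a by -0.73 (nrv2) to 1.12 (loco). The glial sums therefore do not show lower glial markers in the culture as a set.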

How the data were processed

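The authors deposited 1 linear intensity per probe set and array. The software behind it is not given in the sources used here. The values came already scaled per array and were used as deposited. Genes were named from the platform annotation updated through RefSeq, whose chromosomes and start positions served only to put genes in order. Of 13966 probe sets that are no controls, 12443 had 1 gene, 327 several and 1196 none.

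Log2(intensity + 53.6) was computed, 53.6 being the 25th percentile of all intensities, and 9635 probe sets whose highest value exceeded 197.35, the pooled median, were tested. Limma 3.58.1 in R 4.3.3 fitted 3 group means, with eBayes (trend) and Benjamini-Hochberg adjustment over all tested probe sets, and a call at an adjusted p under 0.05. The residual degrees of freedom, 3 (2 without array a), come from EC_pos alone. The number of arrays limits precision. The steps were tested on simulated data in which every array was given the spread of EC_pos b, c and d. That simulation covers neither an outlying array such as a nor larval arrays with another spread.

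Members, gene lists, tests and the split by array a were chosen with earlier results of these data known. Full values are given for up to 10 members with the largest difference each way per comparison and the brightest of each family, and other called genes are named too. Alternatives covered the offset, filter, scaling, variance model, probe set choice and leaving out arrays.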

Additional observations from a re-analysis of the deposited data

Results flagged for a closer look

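In 10 of the 92 genes, 1 EC_pos array lay farther from the other 3 than Dixon's test allows for 4 values on the log2 scale, where chance does so in about 1 of 20 groups and 9.73% of all probe sets did so here. The gap took up 0.957 of the range for Cpr11A, 0.867 for Cpr49Ad, 0.959 for Cpr78Cc, 0.955 for Cpr78E, 0.842 for Pcp and 0.936 for Cpr72Ea, all with array a lowest. It was 0.835 for Cpr49Ae, with array a highest. The other 3 were Cpr65Ec with array d high (0.877), Cpr100A with array b low (0.930) and Acp65Aa with array c high (0.842).

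Of 7 probe sets annotated to several genes, which enter no comparison, 3 gave signals above both larval arrays on every EC_pos array. The mean over the 4 EC_pos arrays was 14658 ± 9417 (SD, n = 4) for 143935_s_at, where LB_neg was 154 and LB_pos 190.0. It was 383 ± 208 for 148537_s_at, where the larval values were 19.5 and 15.8, and 219 ± 151 for 141314_at, where they were 5.0 and 8.1. In all 3 array a was the lowest EC_pos array. Of the other 4, 152220_at was above both larval arrays on b, c and d and below them on a. Probe set 150665_s_at ranged from 107 to 311 in EC_pos, beside 296 on LB_neg, 148267_at from 174 to 499, beside 173 on LB_neg and 222 on LB_pos, and 143514_s_at from 2.8 to 9.7, beside 3.2 and 6.6, so that EC_pos and larval values overlapped.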

How the results depend on the processing

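The calls depend on array a more than on any other choice tried. Leaving out 1 EC_pos array at a time gave 0 to 14 cuticle genes called against LB_pos and 0 to 16 against LB_neg, with 0 unless array a was the one left out, and medians of -0.12 to 0.11 and 0.37 to 0.55. The array weights, which gave array a the lowest weight of 0.18, called 5 and 11. An offset at the 10th percentile called 2 against LB_neg (Cpr47Eb and Cpr49Ac). Combinations added after the data were seen, all without array a, called 14 against LB_pos with no filter, with quantile normalization and with a common median, and 16, 17 and 17 against LB_neg. The higher calls included 12, 13 and 13 of the 13 against LB_pos, and all 16 against LB_neg each time. The median difference from LB_pos was 0.32 with quantile normalization, 0.31 with a common median and 0.25 with a common median without a. From LB_neg it was 0.71 with a filter on the mean and 0.22 without a and with no filter. Of the 15 genes at least 1 log2 unit apart between the larval arrays, 1 was left with an offset at the 50th percentile and 6 of 34 tested with a filter on the mean. The cause was not tested.

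Of the single differences followed through every setting, 24 that did not pass the threshold with all arrays passed it without array a, and 2 passed it under the lower offset, both of them among the 24. Leaving out 1 EC_pos array at a time, the sign turned for several genes. Against LB_pos the ranges were -0.083 to 0.47 for Cpr64Ab (negative without a), -0.38 to 0.19 for Cpr78E and -0.48 to 0.13 for TwdlP (both positive without a), -0.10 to 0.64 for Cpr47Ec (negative without c) and -0.63 to 0.0046 for Cpr64Aa (positive without d). Against LB_neg they were -0.10 to 0.39 for Cpr5C and -0.23 to 0.24 for TwdlQ (both negative without a) and -0.58 to 0.10 for Edg78E (positive without b, and 0.068 without d). TwdlQ was also negative with quantile normalization (-0.018) and a common median (-0.014). None of these turned differences passed the test in either setting. Leaving out the symbol Cpr was not run, since it names no gene among the 92. No paired analysis was possible because the groups share fewer than 2 replicate letters.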
